A study of Mus musculus with 2 samples.

Results

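The 47 genes described here are imprinted genes of the mouse and close neighbours of imprinted genes, out of 53843 genes annotated on the 20 chromosomes examined. They were taken by name, whatever their biotype: 41 are protein-coding and 6 are noncoding RNA genes. All 47 names were found in the annotation, on 11 chromosomes, with 19 of them on chromosome 7. In 12 groups at least 2 of the genes lie in a known imprinted domain together, and 8 loci hold 1 gene of the list each. The question asked of the data is where these genes lie relative to the boundaries of contact domains in 1 kind of neuron, and which genes of a domain lie between the same pair of boundaries.

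The cells were mature olfactory sensory neurons that express the odorant receptor gene Olfr16, also named MOR23. Their source was olfactory epithelium, taken from adult mice of the MOR23-GFP line, in which such neurons are marked by green fluorescent protein. They were collected by fluorescence-activated sorting as primary cells, from males and females together. The labels leave the strain unspecified and list no treatment. In situ Hi-C, which joins DNA ends that are neighbours in the nucleus and sequences the joined ends, was done after fixation in 1% formaldehyde and DpnII digestion, with 28000 cells in replicate 1 and 24400 cells in replicate 2. These 2 replicates are the only group.

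The values are a list of 7435 boundaries that the authors called on the contacts of both replicates together. Each boundary is 5 kb wide and has a class, Strong (3854 boundaries) or Weak (3581), and a strength score, which runs from 0.20 to 4.38 with a median of 0.520. All Strong boundaries score 0.50 or more, and the score is used only to describe and order boundaries within this list. The list gives no value per replicate and no depth, so no spread between replicates can be set beside any value, and no p-value is given. It holds no expression values, so the sorted cell type could not be checked against marker genes. It is also not resolved by allele: the maternal and the paternal chromosome are read as 1, and a boundary on 1 parental copy cannot be told apart from a weaker boundary on both. Intervals in brackets after a percentage are exact (Clopper-Pearson, 95%) and describe counting error alone.

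Imprinted genes are expressed mainly from the copy inherited from 1 parent, and the choice is set by DNA methylation laid down in the egg or the sperm at imprinting control regions. Such genes lie in clusters that can hold genes of the maternal and of the paternal copy, often around a long noncoding RNA. In the best known case, the control region upstream of H19 binds the insulator protein CTCF only on its unmethylated maternal copy, which separates Igf2 from enhancers beyond H19, and CTCF is also found at many boundaries of contact domains. In neurons several imprinted genes are known to be regulated in their own way, among them Ube3a, Grb10 and Dlk1.

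The H19 control region is shown first, because it is the textbook insulator of an imprinted domain and carries several CTCF sites. The CTCF sites there share a form of 12 bases, of which 9 are fixed and 3 are free, called the H19 form here. Searched on both strands of GRCm38, it matched 5 times in the stretch between the boundaries around H19 and Igf2. The first 4 matches lay 2.17, 2.62, 3.65 and 3.89 kb upstream of the H19 start, on the minus strand of chromosome 7, and the fifth lay inside Igf2. Capitals mark the match.
H19-form site 1, chr7:142580302-142580331: cagacgatgCCGCGTGGTGGCagtacaata
H19-form site 2, chr7:142580757-142580786: cggatgctaCCGCGCGGTGGCagcatactc
H19-form site 3, chr7:142581783-142581812: ccagggttgCCGCACGGCGGCagtgaagtc
H19-form site 4, chr7:142582027-142582056: cgggagttgCCGCGTGGTGGCagcaaaatc
H19-form site 5, chr7:142659517-142659546: ggcgccgagCCGCGGGGTGGCgcggctata

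The 4 upstream sites were each followed by AG, which the fifth was not, and all 4 fell within 1 tile of 5 kb. Across the genome the form matched 3887 times and was present in 0.726% of 511497 tiles of 5 kb. At least 4 matches were found in 3 of those tiles. The form was set beforehand from the known repeats upstream of H19, so matches there were built in. The genome counts describe the form only and are no test of this cluster. No boundary was called at this cluster: the nearest one to any of the 4 sites lay 208.0 kb away.

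H19, a maternally expressed long noncoding RNA, and Igf2, the paternally expressed insulin-like growth factor 2, lay in 1 interval, that is, 1 stretch between adjacent boundaries. It ran over 470.0 kb (chr7:142320001-142790000) between a Strong boundary of score 1.08 and a Strong boundary of score 0.931. The H19 start was 211.9 kb from its nearest boundary, the farthest of all 47 genes, and the Igf2 start was 123.2 kb away. The 2 starts are 88.7 kb apart. The same interval held 11 protein-coding starts, among them Ins2, which encodes an insulin, and Mrpl23, a mitochondrial ribosomal protein gene. The noncoding gene Nctc1 started there as well. Beyond the boundary of score 0.931 the next coding start was Th, tyrosine hydroxylase, 136.1 kb away.

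The neighbouring Kcnq1 domain was divided. Its 8 genes lay in 4 intervals, with 3 boundaries between the first and the last start and 1 start inside a boundary. Ascl2, a transcription factor gene needed in the placenta, shared a 190.0 kb interval with Th and was separated by a Weak boundary of score 0.377 from Cd81, a tetraspanin gene, 83.5 kb away. Cd81, Tssc4 and the start of Kcnq1, a potassium channel gene, shared the next interval of 160.0 kb.

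A Strong boundary of score 0.906 lay in an intron of Kcnq1, 46.1 kb after the start of this 321 kb gene (chr7:143150001-143155000). All 7 annotated transcript starts of Kcnq1 lay before it. Kcnq1ot1, the paternally expressed noncoding RNA that silences the domain and is read from within Kcnq1 on the other strand, started beyond it. Kcnq1ot1 shared a 315.0 kb interval with Cdkn1c, a maternally expressed inhibitor of the cell cycle, and Cdkn1c was the only protein-coding start of that interval. The start of Kcnq1ot1 lay 141.5 kb from its nearest boundary.

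The boundary that closes this interval was Strong, with a score of 1.46 (chr7:143470001-143475000). Cdkn1c started 8.95 kb from it. Slc22a18, which encodes a membrane transporter, started inside it, with 4 of its transcript starts in the boundary and 1 beyond. Phlda2, a maternally expressed gene that limits placental growth, started 28.1 kb from it on the other side, in an interval of 325.0 kb with Nap1l4, Cars, Osbpl5, Tnfrsf22, Tnfrsf23 and Tnfrsf26. Cdkn1c and Slc22a18 start 12.7 kb apart and Slc22a18 and Phlda2 29.4 kb apart, and neither pair shared an interval. The rest of Slc22a18 lies on the Phlda2 side of the boundary. Slc22a18 and Phlda2 thus count as divided only because a start inside a boundary belongs to no interval.

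**Figure D1:**
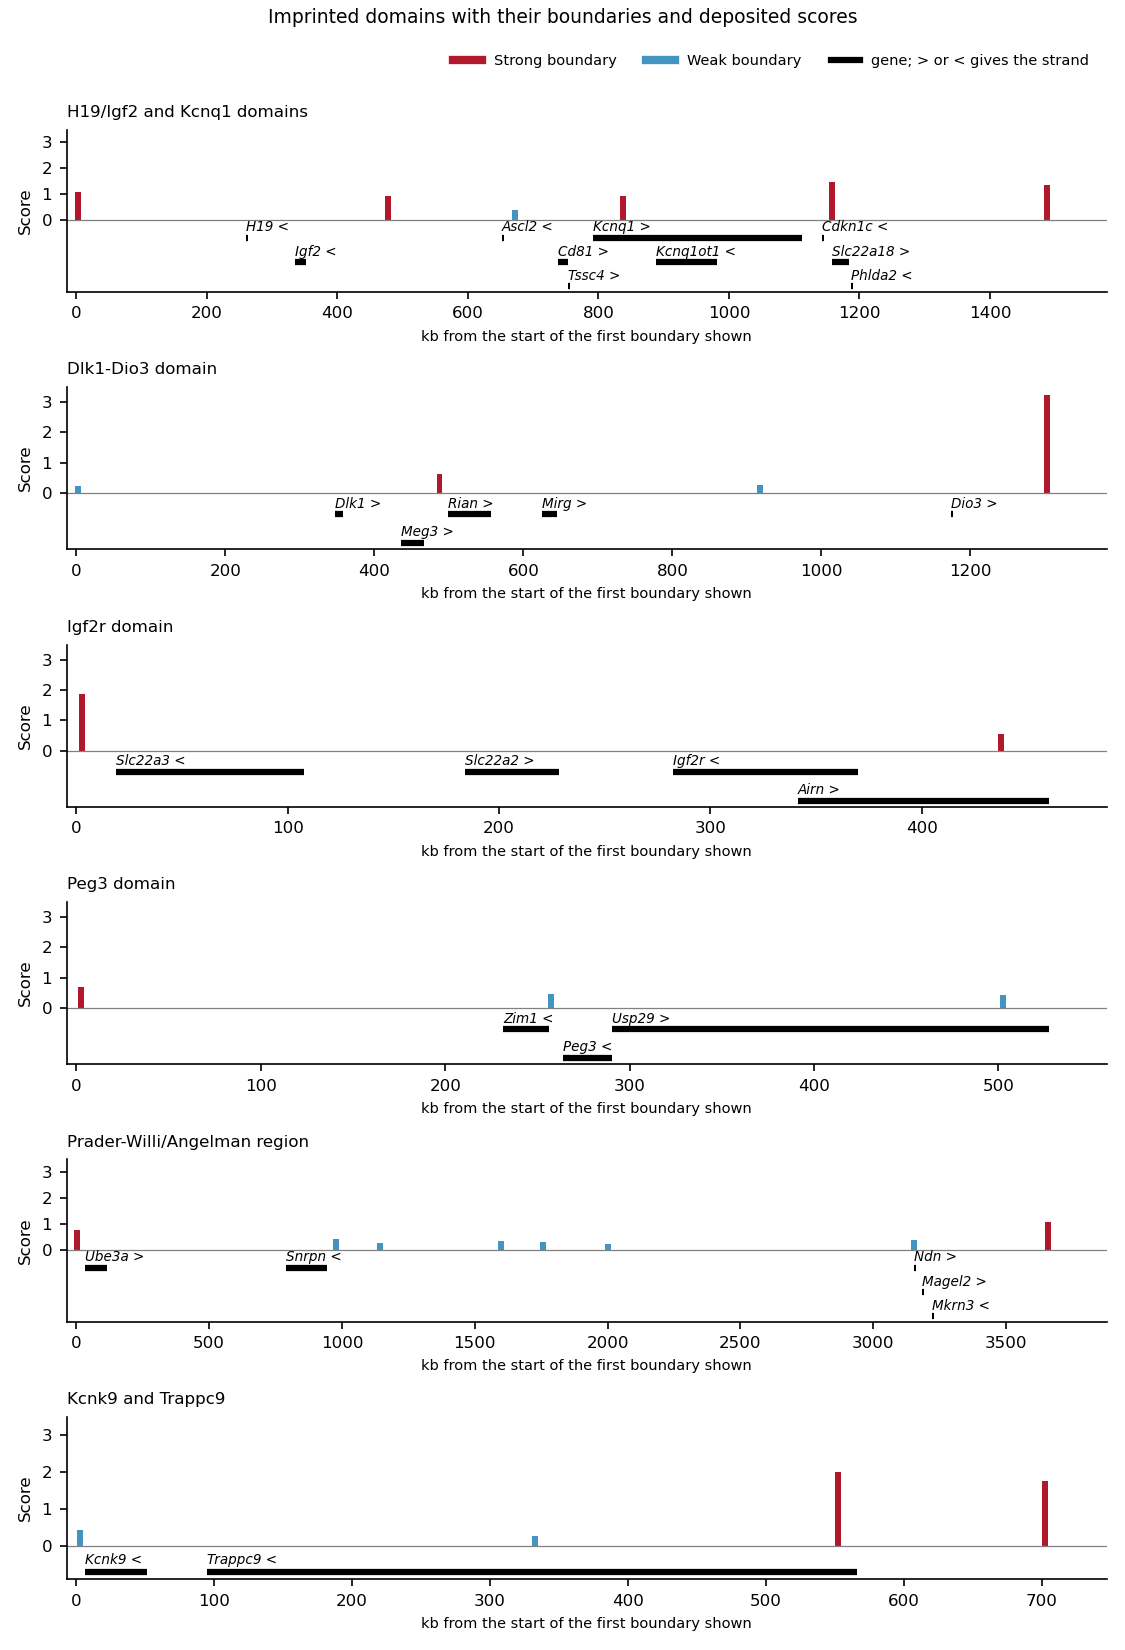
Imprinted domains drawn along the chromosome, with distance in kb from the first boundary shown on the x axis, genes as black bars with their strand, and boundaries as columns whose height is the deposited score (Strong red, Weak blue). The H19 and Igf2 starts lie between the same boundaries, whereas 3 boundaries fall among the starts of the Kcnq1 domain and 2 among those of the Dlk1-Dio3 domain.

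The Dlk1-Dio3 domain, on chromosome 12, was divided by 2 boundaries into 3 intervals. Dlk1, a paternally expressed gene for a Notch-related membrane protein, shared a 480.0 kb interval with Meg3, a maternally expressed long noncoding RNA. A Strong boundary of score 0.631 (chr12:109590001-109595000) lay between Meg3 and Rian, whose starts are 62.9 kb apart. Rian, a maternally expressed host gene of small nucleolar RNAs, started 8.94 kb beyond that boundary and shared a 425.0 kb interval with Mirg, a host gene of microRNAs. This interval held the starts of 51 microRNA genes and 23 small nucleolar RNA genes. Its 1 protein-coding start was that of Rtl1, a paternally expressed retrotransposon-derived gene, 5.33 kb from the boundary.

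The boundary between Meg3 and Rian itself held an exon of Rtl1 and the microRNA genes Mir431, Mir433, Mir127, Mir434 and Mir432. These microRNAs are transcribed from the maternal copy, antisense to Rtl1, and are known to target its transcript. RefSeq (GRCm38.p6) gave 8 mature sequences that lie in the boundary, from 4 of the 5 genes. They are shown because they are the sequences the called boundary falls on, with the seed, bases 2 to 8, in capitals.
mmu-miR-431-5p: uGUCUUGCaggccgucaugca
mmu-miR-431-3p: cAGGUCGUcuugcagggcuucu
mmu-miR-433-5p: uACGGUGAgccugucauuauuc
mmu-miR-433-3p: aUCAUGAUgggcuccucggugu
mmu-miR-127-5p: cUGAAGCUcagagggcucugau
mmu-miR-127-3p: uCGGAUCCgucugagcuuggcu
mmu-miR-434-5p: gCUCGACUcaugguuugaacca
mmu-miR-434-3p: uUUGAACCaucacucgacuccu
The 8 sequences had 8 distinct seeds, so none of them share one.

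Dio3, a paternally expressed gene whose enzyme inactivates thyroid hormone, lay in an interval of its own at the far end of the domain. That interval measured 380.0 kb and held no other protein-coding start. A Weak boundary of score 0.261 lay between Mirg and Dio3, which are 549.3 kb apart. On the other side of Dio3, 125.9 kb from its start, was a Strong boundary of score 3.25, which ranked 4 among the 7435 scores and was the highest next to any of the 47 genes. Dio3os, a noncoding gene read from the opposite strand, started in the same interval as Dio3.

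In the Prader-Willi/Angelman region, on chromosome 7, a single interval spanned Ube3a and Snrpn. Ube3a, a ubiquitin ligase gene expressed from the maternal copy in neurons, started 28.8 kb from the Strong boundary (score 0.748) at 1 end. Snrpn, a paternally expressed splicing factor gene, started 29.8 kb from the Weak boundary (score 0.421) at the other end. This start is the far 5′ end of a gene record of 158 kb. Snurf, which starts within that record, lay 165.0 kb from the same boundary. The interval measured 970.0 kb (chr7:59200001-60170000), and 3.41% of all 7415 intervals were longer. It held 210 small nucleolar RNA starts along with Snurf and Snhg14, and 55.3% of its bases are masked as repeats. Regions rich in repeats can hold fewer uniquely placed reads, and the part of this in the length of the interval was not tested.

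Snrpn and Ndn are 2206.3 kb apart, with 6 Weak boundaries and no Strong one between them, the sixth being the boundary that holds the Ndn start. Ndn, a paternally expressed growth suppressor gene of neurons, lay inside this Weak boundary of score 0.357 with its only transcript start. Magel2 and Mkrn3, the paternally expressed genes next to it, started 27.0 and 70.1 kb beyond it and shared an interval with Peg12. With Weak boundaries left out, all 5 genes of the region fell in 1 interval.

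In the Peg3 domain, Zim1 and Peg3 were separated, whereas Peg3 and Usp29 were not. Zim1, a maternally expressed zinc finger gene, started inside a Weak boundary of score 0.456, with 2 of its transcript starts in it and 1 beyond. Peg3, a paternally expressed zinc finger gene, and Usp29, a ubiquitin protease gene read in the opposite direction, start 147 bases apart and lay 30.4 and 30.6 kb from that boundary. Their interval of 240.0 kb held no other protein-coding start. It ended at a Weak boundary of score 0.417 in an intron of Usp29, 212 kb into this 237 kb gene. Both boundaries of the domain were Weak, and with Strong boundaries only, the 3 genes shared an interval.

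The starts of the Igf2r domain, on chromosome 17, shared 1 interval of 430.0 kb. Slc22a3 and Slc22a2, maternally expressed in the placenta, encode organic cation transporters and started 102.7 and 179.1 kb from their nearest boundary. Igf2r, the maternally expressed receptor that clears insulin-like growth factor 2, started 65.3 kb away. Airn, the paternally expressed noncoding RNA that overlaps Igf2r and silences it, started 93.7 kb away. The interval was closed by a Strong boundary of score 1.86 beside Slc22a3 and by a Strong boundary of score 0.543 that lay in an intron of Airn. That intronic boundary was 96.2 kb after the start of Airn, which is 119 kb long, so all 6 annotated Airn transcript starts lay before it.

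In the Mest domain, Mest, a paternally expressed hydrolase gene, and Copg2, a vesicle coat gene, shared a 380.0 kb interval although their starts are 173.2 kb apart. Klf14, an imprinted transcription factor gene, started in the same interval. In the Peg10 domain, Peg10, a retrotransposon-derived gene of the placenta, and Sgce, a sarcoglycan gene, start 99 bases apart in opposite directions and lay in 1 interval of 210.0 kb with Casd1. The boundary that touches the end of Peg10 was Weak, with a score of 0.203, near the bottom of the list.

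The other pairs of neighbours in the same interval were Nnat with Blcap and Herc3 with Nap1l5. Nnat, a paternally expressed brain gene for a small membrane protein, lies within Blcap. Their interval measured 145.0 kb, among the 2 shortest around a listed gene, and they were its only protein-coding starts. Nap1l5, a paternally expressed gene that lies within Herc3, a ubiquitin ligase gene, shared 205.0 kb with its host, again with no other coding start.

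Commd1 and Zrsr1 differed from those host and nested gene pairs. Zrsr1, a paternally expressed gene for a splicing factor relative, lies within Commd1, which encodes a regulator of copper handling. Commd1 started inside a Strong boundary of score 1.51 (chr11:22980001-22985000), and Zrsr1 started 8.00 kb from it. The rest of Commd1 lies on the Zrsr1 side of the boundary, so the pair counts as divided only because the Commd1 start, inside the boundary, belongs to no interval, and by gene midpoints the 2 genes shared one. Of the annotated Commd1 transcript starts, 3 lay in the boundary and 3 further into the gene. The coding gene Cct4, a subunit of a chaperonin, started 5.52 kb from the boundary on the other side.

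In the Trappc9 domain, Kcnk9, a potassium channel gene expressed from the maternal copy in brain, and Trappc9, a gene of vesicle transport, start 514.9 kb apart and did not share an interval. Trappc9 is 472 kb long and held 2 boundaries, a Strong one of score 2.00 at 13.7 kb after its start and a Weak one of score 0.264 at 234 kb. Peg13, a paternally expressed noncoding RNA read from within Trappc9, started on the Kcnk9 side of the Weak boundary, in 1 interval with Kcnk9. The Trappc9 start itself lay with those of Ago2 and Chrac1 in an interval of 145.0 kb between Strong boundaries of score 2.00 and 1.76.

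Among the 8 loci with 1 listed gene, Gnas and Grb10 held a boundary with several transcript starts on either side. Gnas encodes the stimulatory G protein subunit and has promoters of maternal, paternal and biallelic use. A Strong boundary of score 0.680 lay in a Gnas intron 28.2 kb after its first start, with 4 transcript starts before it and 12 after. Nespas, the noncoding RNA read against Gnas, started before it, 14.6 kb away. Grb10 encodes an adaptor of growth factor receptors and uses the maternal copy in most tissues and the paternal copy in neurons. A Weak boundary of score 0.487 lay 26.2 kb after its first start, with 5 transcript starts before it and 4 after. Which of these starts are used in these neurons was not measured.

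H13, a gene for a signal peptide peptidase whose transcripts end at different places on the 2 parental copies, started inside a Strong boundary of score 0.535 on chromosome 2. Of its transcript starts, 4 lay in the boundary and 1 beyond it. Mcts2, the paternally expressed retrogene within H13, started 17.0 kb from the boundary. H13 was the only 1 of the 5 genes with a start in a boundary that had a match to the CTCF core consensus in the 150 bases before its start, so this stretch is printed, with the match in capitals.
H13, chr2:152669311-152669460, plus strand: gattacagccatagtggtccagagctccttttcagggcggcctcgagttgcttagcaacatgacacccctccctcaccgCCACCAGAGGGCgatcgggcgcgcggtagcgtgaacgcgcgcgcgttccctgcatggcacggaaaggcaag
The match ended 60 bases before the start. Such a match is a description of the letters and does not show that CTCF was bound in these cells. The 150 bases held 15 CG pairs, whereas Slc22a18 and Ndn had 0, Commd1 5 and Zim1 8 in the same stretch, and the median over 32851 RefSeq promoters was 4.00.

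Plagl1, a paternally expressed zinc finger gene that restrains growth, started 45.5 kb from a Strong boundary of score 1.97 and held no boundary. Rasgrf1, a paternally expressed activator of Ras in neurons, was the only protein-coding start of a 210.0 kb interval between Weak boundaries of score 0.358 and 0.30. Zdbf2, a paternally expressed gene that affects growth through the hypothalamus, started 78.3 kb from a Strong boundary of score 1.78 and shared 180.0 kb with Gpr1. Inpp5f, a phosphatase gene with a paternally expressed brain transcript, started 151.3 kb from its nearest boundary, a Weak one of score 0.390. On the other side, 178.7 kb from the start, was a Strong boundary of score 2.96, which ranked 18 in the list. Impact, a paternally expressed regulator of translation, held a Strong boundary of score 2.19 at 31.6 kb after its start, in a gene of 37.1 kb, with 7 transcript starts before the boundary and 2 in it.

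Across the list, 8 of 47 genes started within 10 kb of a boundary, or 17.0% (7.65 to 30.8). The same was true of 10.0% of all annotated genes, which lies inside that interval. Among protein-coding genes the counts were 7 of 41, or 17.1% (7.15 to 32.1), beside 12.4% of 21755. The 8 genes were Slc22a18, Zim1, Ndn, Commd1 and H13, which started in a boundary, and Zrsr1, Rian and Cdkn1c. They lay at 6 distinct boundaries, since Slc22a18 and Cdkn1c share one, as do Commd1 and Zrsr1, and 6 of the 8 were beside a Strong boundary. Just outside the 10 kb limit were Trappc9 at 11.2 kb, Peg10 at 12.7 kb and Sgce at 12.8 kb.

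Starts inside a boundary numbered 5 of 47, or 10.6% (3.55 to 23.1), beside 2.37% of all annotated genes. All 5 are protein-coding genes, and over coding genes alone the counts were 5 of 41, or 12.2% (4.08 to 26.2), beside 3.25% of 21755. The genes are few and were not drawn at random. These 5 starts lay in 5 different boundaries in 5 domains or loci. Of these genes, Slc22a18, Commd1 and H13 lay in Strong boundaries, Zim1 and Ndn in Weak ones.

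The median distance from a start to the nearest boundary was 43.6 kb for the 47 genes, with quartiles of 16.1 and 85.7 kb and a 95% order-statistic interval of 28.1 to 70.1 kb. For all annotated genes the median was 69.3 kb, and for protein-coding genes it was 58.4 kb. Both values lie inside that interval. The coding genes of the list alone had a median of 30.6 kb, for which no interval was computed. Of the 47 genes, 10 started 100 kb or more from a boundary, beside 35.4% of all annotated genes, noncoding ones included. No interval was computed for this count, so it is not read as a difference. Coding genes alone were not counted at this distance. The 10 genes include Igf2, H19, Kcnq1ot1, Dlk1, Mirg, Dio3 and Slc22a2. Genes of a domain share their boundaries, so these distances are not independent of one another.

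**Figure D2:**
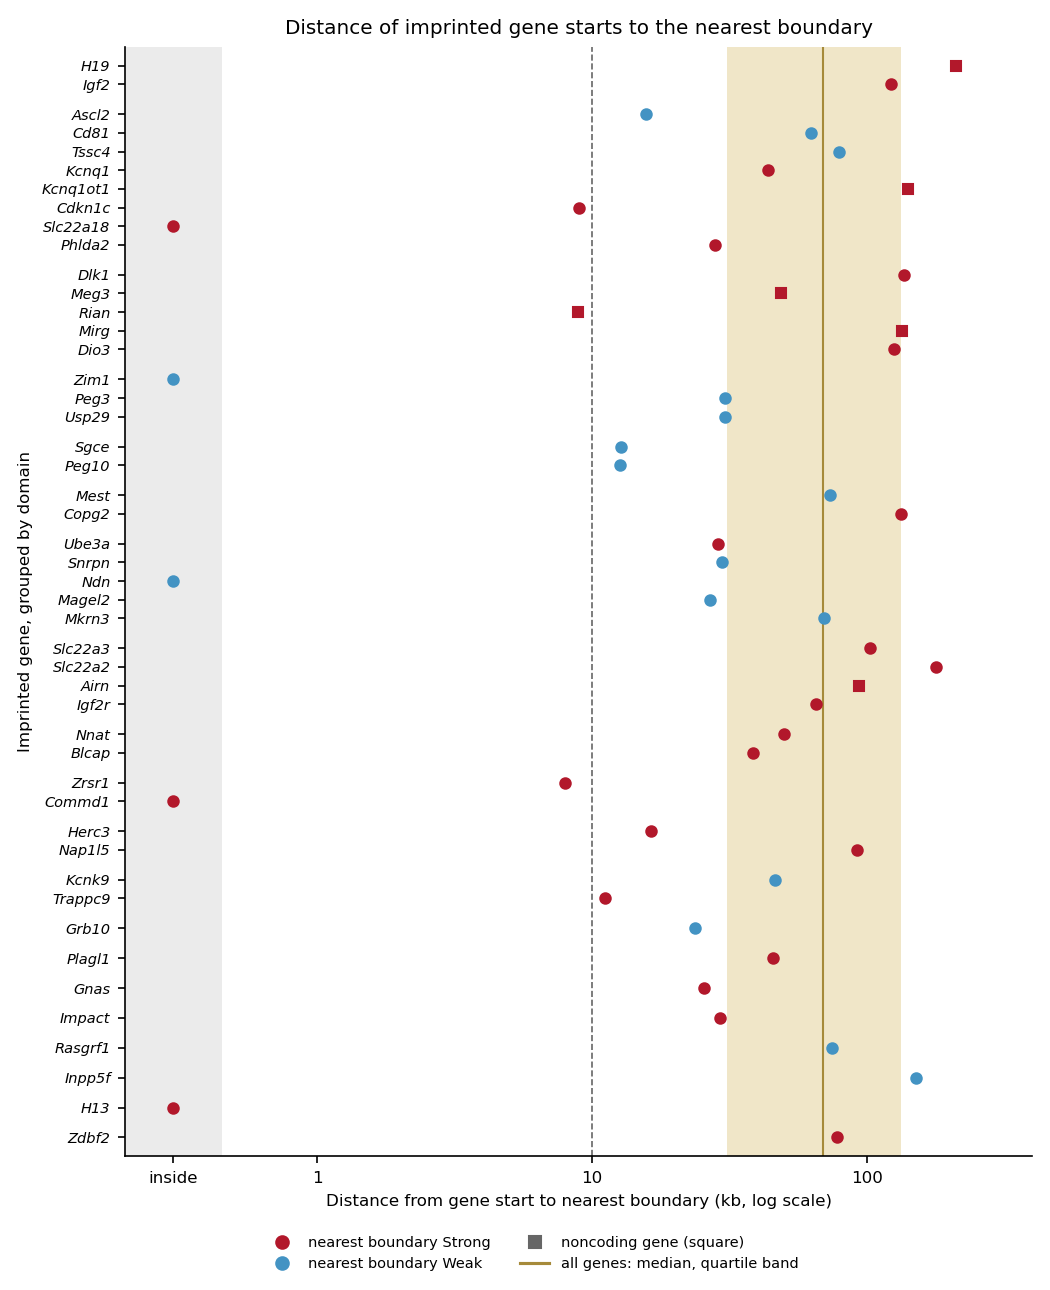
Distance in kb, on a log axis, from each of the 47 gene starts to the nearest boundary, grouped by domain and coloured by the class of that boundary, with squares for noncoding genes and a grey strip at the left for the 5 starts inside a boundary. The dashed line marks 10 kb, and the solid line and band show the median (69.3 kb) and quartiles (31.1 and 133 kb) of all annotated genes, beside a median of 43.6 kb for the listed genes.

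A boundary overlapped the body of 13 of the 47 genes, or 27.7% (15.6 to 42.6), beside 8.38% of all annotated genes. Among coding genes the counts were 12 of 41, beside 3353 of 21755. Long genes meet boundaries more often, so the 41 coding genes were also set against coding genes of their own length. Of those under 10 kb, 1 of 11 held or touched a boundary, beside 5.00% of coding genes. The counts were 5 of 14 at 10 to 50 kb, beside 13.5%, and 2 of 9 at 50 to 100 kb, beside 22.4%. At 100 kb and over, 4 of 7 did, beside 47.4%. The noncoding gene with a boundary in its body was Airn. In 8 of the 13 genes the boundary lay away from the first start: Kcnq1, Usp29, Peg10, Grb10, Airn, Gnas, Impact and Trappc9. No share over all genes was computed for this count.

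Of the 12 domains, 6 were undivided, with all listed starts in 1 interval: H19-Igf2, Peg10, Mest, Igf2r, Nnat and Herc3. The other 6 were divided: Kcnq1, Dlk1-Dio3, Peg3, Prader-Willi/Angelman, Commd1 and Trappc9. The undivided ones hold 2 or 4 listed genes each, and the domains with 5 or 8 listed genes were all divided. The latter span 536.3, 828.3 and 3191.4 kb, and the undivided ones 14.9 to 441.2 kb. More starts over a longer stretch are divided more often anywhere. No share over other groups of genes was computed, so these counts are not read as a trait of imprinted domains. Counted by neighbours, 16 of 27 pairs of adjacent listed starts shared an interval and 11 did not.

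The chance that a boundary falls between 2 starts grows with their distance, so the pairs were set beside all pairs of protein-coding starts in the same distance class, adjacent or not. Under 25 kb, 4 of 6 imprinted pairs shared an interval, beside 90.7% of coding pairs. At 25 to 50 kb 3 of 6 did, beside 81.9%, and at 50 to 100 kb 4 of 6 did, beside 67.2%. At 100 to 200 kb 4 of 5 did, beside 42.1%. At 500 kb to 1 Mb 1 of 3 did, which was Ube3a with Snrpn, beside 3.77%. Below 50 kb the count was 7 of 12, or 58.3% (27.7 to 84.8), beside 86.0% of 24196 coding pairs, and all 5 pairs that did not share included a gene whose start lay inside a boundary. These were Cdkn1c with Slc22a18, Slc22a18 with Phlda2, Zim1 with Peg3, Ndn with Magel2, and Zrsr1 with Commd1. The interval treats the pairs as independent, which they are not, since Slc22a18 is counted in 2 of them. For Slc22a18 with Phlda2, Ndn with Magel2 and Zrsr1 with Commd1, the part of that gene outside the boundary lies on its partner's side. Those pairs count as not sharing because a start inside a boundary belongs to no interval.

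Grouped by the parental copy that is usually expressed, 9 of 13 pairs of oppositely imprinted neighbours shared an interval, and 7 of 14 pairs of neighbours expressed from the same copy did. The opposite pairs are farther apart, with a median distance of 88.7 kb beside 40.1 kb. Coding pairs of the same distance classes shared an interval in 55.6% of cases on average for the 13 opposite pairs. The average was 72.1% for the 13 same-copy pairs under 1 Mb, of which 7 shared one. Below 100 kb the counts were 5 of 7, beside 78.1%, and 6 of 11, beside 81.1%. The copy was assigned from general knowledge after the positions had been seen, and some genes are imprinted only in other tissues. The 9 oppositely imprinted pairs in 1 interval include H19 with Igf2, Dlk1 with Meg3, Airn with Igf2r, Mest with Copg2 and Ube3a with Snrpn. The 4 that were divided were Kcnq1 with Kcnq1ot1, Mirg with Dio3, Zim1 with Peg3 and Zrsr1 with Commd1.

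**Figure D3:**
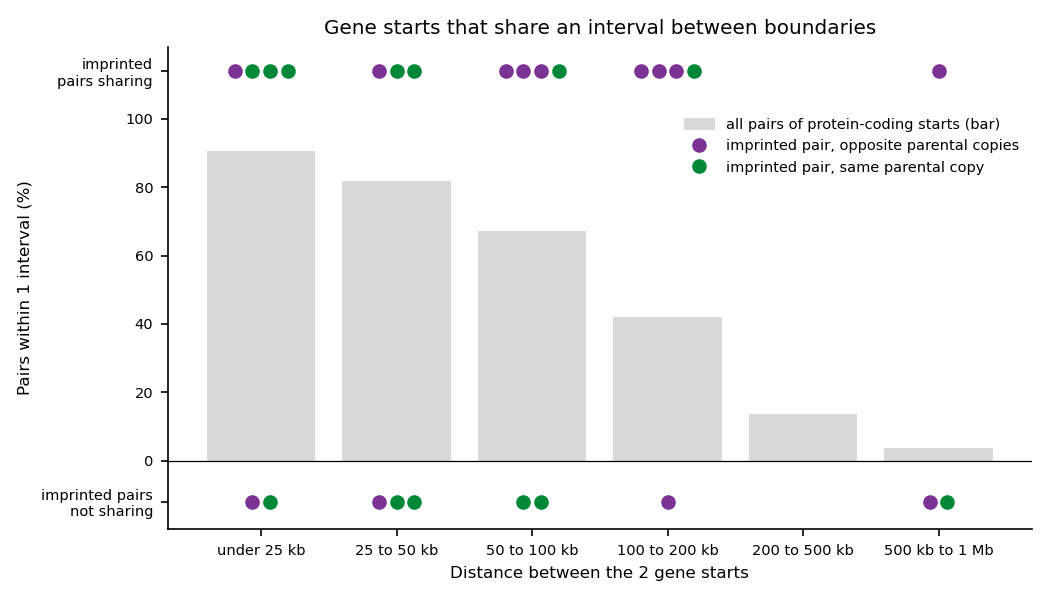
Share of pairs of protein-coding starts that lie in 1 interval (bars, percent) by the distance between the starts in kb, with each pair of adjacent imprinted starts under 1 Mb drawn as a point above (in 1 interval) or below (not in 1 interval) and coloured by parental copy. The bars fall from 90.7% under 25 kb to 3.77% at 500 kb to 1 Mb, and the single imprinted pair that shared an interval in the last class is Ube3a with Snrpn.

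The starts of 42 of the 47 genes lay in 26 intervals, which ranged from 145.0 to 970.0 kb with a median of 327.5 kb. All 7415 intervals had a median of 260.0 kb. A longer interval is more likely to contain any given start, so the interval around a start is the closer comparison: its median was 342.5 kb for the listed genes, 320.0 kb for all annotated genes and 275.0 kb for coding genes. Of the 26 intervals, 9 had Strong boundaries on both sides, 13 had a Strong and a Weak one and 4 had Weak boundaries on both sides. Those 4 were the intervals of Peg3 with Usp29, Peg10 with Sgce, Kcnk9, and Rasgrf1. Of all intervals, 27.5% had Strong boundaries on both sides and 23.9% had Weak ones on both sides.

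**Figure D4:**
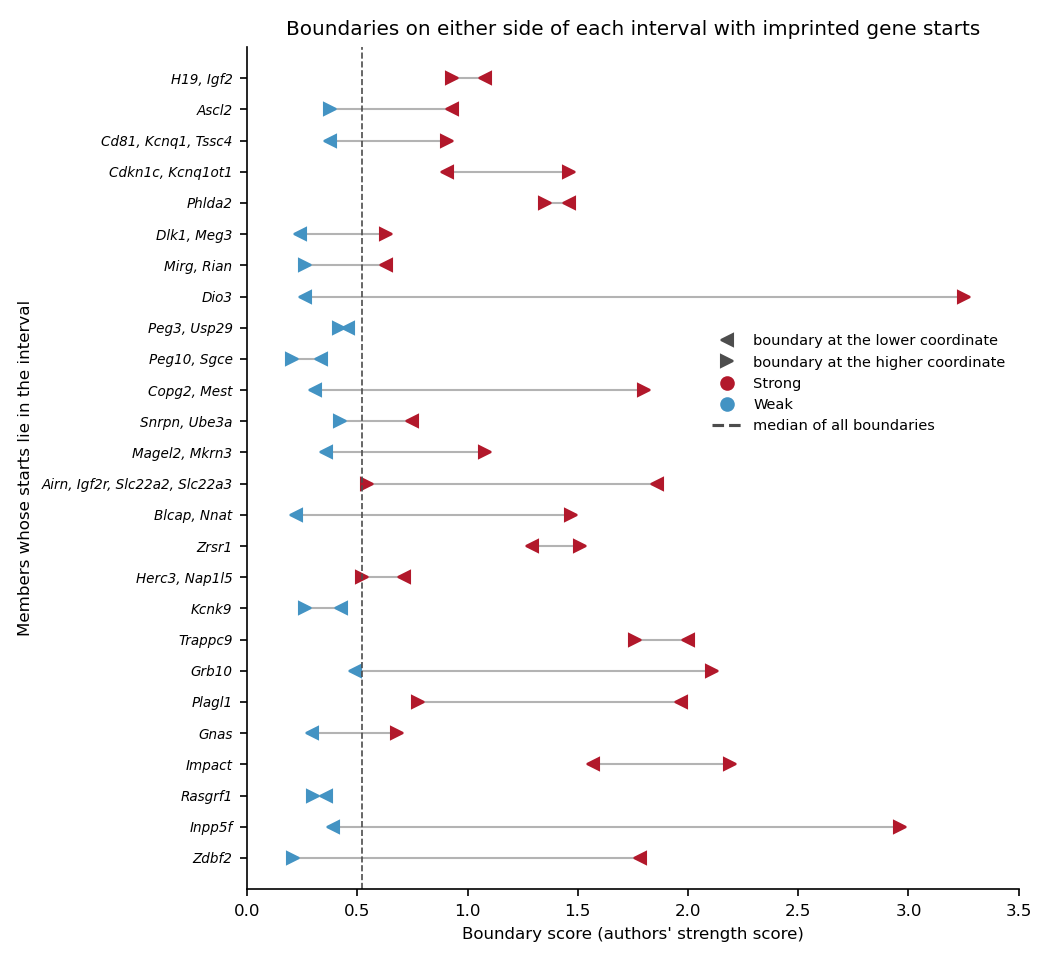
Score of the boundary at the lower and at the higher coordinate of each of the 26 intervals that hold listed starts, coloured by class, with a dashed line at the median of all boundaries, 0.520. The intervals of Dio3 and Inpp5f each pair a Weak boundary with one of the highest scores of the list, 3.25 and 2.96.

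Next to or in the listed genes were 49 boundaries. Of these 30 were Strong, or 61.2% (46.2 to 74.8), beside 51.8% of all boundaries. Their median score was 0.713, and that of all boundaries was 0.520. The CTCF core consensus matched within 10 kb of 10 of the 49, or 20.4% (10.2 to 34.3), beside 23.1% of all boundaries and 11% of 102089 tiles of 25 kb. The largest number of matches, 4, was at the Strong boundary nearest to Zdbf2, which lies in an intron of Gpr1, 78.3 kb from the Zdbf2 start. Base composition was close to that of all boundaries, with a median GC content of 44.4% beside 42.6%, and a CpG ratio of observed to expected of 0.197 beside 0.179.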

How the data were processed

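According to the series design text, boundaries were called by the authors on 1 contact matrix that pools both replicates, on GRCm38, the build the submitters' processing notes also name. The deposited score is the strength score of each boundary. How it is computed, with which caller, after which alignment and at what depth was not given in the sources used here. Matrices and signal tracks were not used here.

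Positions came from GENCODE M21. Each gene was represented by its 5′ end, and near meant within 10 kb of the boundary. A start inside a boundary belongs to no interval. Coordinates are 1-based. Motifs were searched on both strands of GRCm38.p6, and RefSeq tables gave microRNAs. Domains and motifs were set from general knowledge. All members were named, along with genes at or next to the flanking boundaries, other imprinted genes near a boundary or in an interval with a member, and regulators near a boundary. The members and lists were chosen with earlier results of these data known. The counting code was tested on simulated data. Python 3.11.15, numpy 2.4.6, scipy 1.17.1 and matplotlib 3.10.9 were used. Alternatives changed the boundaries, the distance, the position of the gene or of the boundary, and the genes counted.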

Additional observations from a re-analysis of the deposited data

How the results depend on the processing

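Of 26 alternative settings, 15 left their result within 1.5 times the reported count or within the interval of the median, and 11 did not. The 8 genes near a boundary became 4 with boundaries of a score of at least 1 (8.51%, 2.37 to 20.4, beside 2.75% of all genes). The count was 6 with Strong boundaries only (12.8%, 4.83 to 25.7, beside 6.12%). It became 5 when distance was taken to the boundary midpoint or only starts inside a boundary counted. It was 14 within 25 kb (29.8%, 17.3 to 44.9, beside 20.8% of all genes) and 28 within 50 kb (59.6%, 44.3 to 73.6, beside 38%). When any part of the gene body counted, it was 18. The share over all genes lies inside each of these intervals except the one within 50 kb. The intervals treat genes as independent, although genes of a domain share boundaries, and the shares beside them are over all annotated genes, not coding genes. The median distance of 43.6 kb became 103 kb with Strong boundaries only, 336 kb with a score of at least 1 and 18.3 kb from any part of the body. The 13 genes whose body met a boundary became 8 with Strong boundaries and 4 with a score of at least 1. For the midpoint count, the altered gene body counts and the altered medians, no value over all genes is given here. Those changes therefore cannot be read as particular to the listed genes. Fewer boundaries lie farther from any gene by construction.

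Undivided domains numbered 8 with Strong boundaries only, adding Peg3 and Prader-Willi/Angelman, and 9 with a score of at least 1, adding Dlk1-Dio3 as well. By gene midpoints they numbered 7, adding Commd1. With whole gene bodies required to lie in 1 interval they numbered 4, losing Peg10 and Igf2r. The 16 of 27 pairs of adjacent starts in 1 interval became 21 with Strong boundaries only and 23 with a score of at least 1. They became 18 by gene midpoints and 11 with whole gene bodies in 1 interval. Fewer boundaries divide fewer pairs by construction. No paired analysis was possible because boundaries have no values for single replicates, and for the same reason no replicate could be left out. The unknown depth limits every call: a boundary missing from the list is not shown to be absent, and the 5 kb width sets the precision of each position.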

Other observations

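Beyond the 47 genes, 61 other imprinted genes or neighbours of imprinted domains were placed in the same way. Of these 4 started within 10 kb of a boundary, or 6.56% (1.82 to 15.9), beside 10.0% of all annotated genes. The median distance of the 61 was 46.8 kb, beside 69.3 kb for all annotated genes. Jade1, a chromatin reader gene, started inside a Weak boundary of score 0.419. Wars, a tRNA synthetase gene near Dlk1, started 0.827 kb from a Strong boundary of score 0.936. Gabrg3, a subunit of the GABA-A receptor at the edge of the Prader-Willi/Angelman region, started 2.19 kb from a Weak boundary of score 0.337, and Rtl1 was the fourth. The 61 were chosen as imprinted or as lying next to imprinted domains, so sharing an interval with a listed gene is partly built in. In all, 25 of the 61 shared an interval with at least 1 of the 47 genes, and no share over other genes was computed. These 25 include Tspan32 and Trpm5 beside Kcnq1, Cobl beside Grb10 and Phactr2 beside Plagl1. Zim2, Zim3 and Zfp264, zinc finger genes around Peg3, were separated from Peg3 and Usp29 by the Weak boundaries of that domain.

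Of 27 genes whose products set, keep or read imprints, 1 started within 10 kb of a boundary, or 3.70% (0.0937 to 19). The share over all annotated genes, 10.0%, lies inside that interval. The median distance of the 27 was 79.9 kb, beside 69.3 kb for all annotated genes. The gene within 10 kb was Dppa3, which protects maternal methylation in the early embryo, at 6.41 kb from a Strong boundary of score 0.650. Ctcf started 71.6 kb from a Weak boundary of score 0.202, and Zfp57, a zinc finger gene that keeps imprints, 83.8 kb from a Strong boundary of score 0.695.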
